A study of Mus musculus with 14 samples.

Results

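Type I interferon-stimulated genes were examined in brain RNA-seq libraries of 14 female mice. The 47 genes were taken by symbol from a table of 43346 genes, each symbol was found once, and the list covers STAT and IRF transcription factors, RNA and DNA sensors and antiviral effectors, while the guanylate-binding and immunity-related GTPases were left out. The 4 NTG mice were non-transgenic littermates, and 5 vehicle-treated and 5 CP2-treated mice carried both the APP and PS1 transgenes (genotype label APP/PS1 +/+). All 14 mice had the strain label C57BL/6;SJL-Tg and were 23 months old. From 9 months of age the last group drank water with 0.1% PEG and CP2, which inhibits mitochondrial complex I, at a dose of 25 mg/kg/day. The other mice received vehicle water according to the treatment text, although their treatment label reads non-treated. RNA came from a cross-section holding hippocampus and cortex, so a level is an average over all cells of the section. The promoters that drive the transgenes are not given in the sources used here. No NTG mouse given CP2 was analysed here.

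Type I interferons are a family of secreted cytokines, the interferon alphas and interferon beta among them, that bind the receptor chains Ifnar1 and Ifnar2. The receptor-bound kinases Jak1 and Tyk2 then phosphorylate Stat2, which acts with Irf9 in the complex ISGF3, and this complex binds the interferon-stimulated response element (ISRE) in front of its target genes. The products of these genes sense viral nucleic acid, degrade RNA, block translation, trap virions or attach the ubiquitin-like protein Isg15 to other proteins. In brain, microglia, astrocytes and endothelium can all express them, and a subset of microglia in amyloid models is known for doing so.

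Windows around sequence matches are shown first because the element is where the pathway meets these genes, and the gene list did not use sequence. Promoters of 300 bases, from 250 bases before to 50 bases after the annotated start site, were taken from RefSeq on GRCm38.p6, the assembly behind mm10, and 37 of the 47 genes had one. The ISRE was searched as GAAANNGAAA or TTTCNNTTTC on the other strand, and overlapping matches were each kept. The gamma-activated site (GAS), an element of interferon gamma responses, was searched as TTCNNNGAA, which reads the same on both strands. Each window below is written 5′ to 3′ on the strand of its gene, with the matched letters in capitals and the position of the first capital counted from the start site.
Isg15, chr4:156200871-156200900, minus strand, position -72: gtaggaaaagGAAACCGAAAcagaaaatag
Oas1a, chr5:120907526-120907555, minus strand, position -20: cccttctcggGAAATGGAAActgaaaatct
Ifit1, chr19:34640794-34640823, plus strand, position -85: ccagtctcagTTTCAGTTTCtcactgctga
Ifit3, chr19:34583397-34583426, plus strand, position -122: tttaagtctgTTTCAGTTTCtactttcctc
Bst2, chr8:71537577-71537606, minus strand, position -124: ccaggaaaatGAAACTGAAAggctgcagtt
Rsad2, chr12:26456553-26456582, minus strand, position -120: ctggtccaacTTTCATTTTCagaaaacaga
Ifitm3, chr7:141010723-141010752, minus strand, position 2: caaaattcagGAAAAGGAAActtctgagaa
Stat2, chr10:128270266-128270295, plus strand, position -222: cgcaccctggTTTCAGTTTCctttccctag
Irf1 (GAS), chr11:53769914-53769942, plus strand, position -90: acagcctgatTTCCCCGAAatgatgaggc

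The ISRE letters were present in the promoters of 16 of the 37 genes (43.2%), against 3.99% of all 27025 genes with a promoter of this length. GAS letters were present in 9 of the 37 genes (24.3%), against 9.55% of all genes. Isg15 held 3 overlapping ISRE matches, whereas Rsad2 and Stat2 held 1 each. These are matches of letters and not measured binding sites. A gene without a match, such as Oasl2 or Lgals3bp, lacks only these letters in this window.

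**Figure D1:**
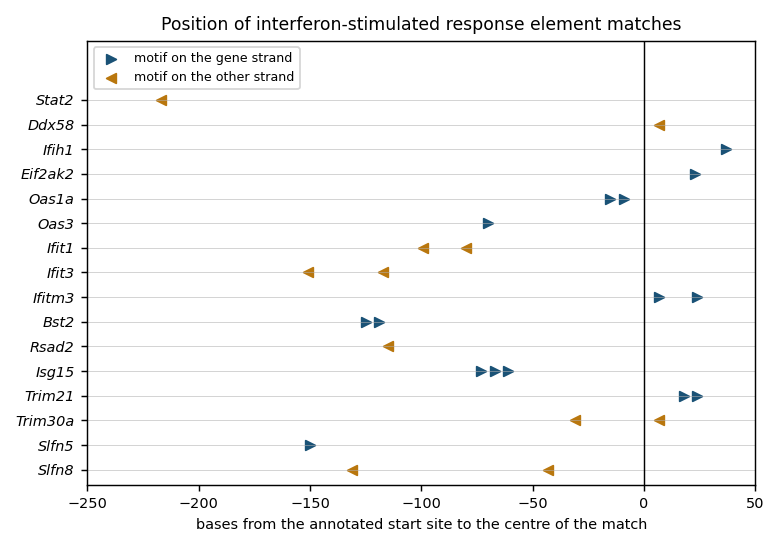
Position of each ISRE match in the 16 genes that had one, in bases from the annotated start site to the centre of the match, with the arrow giving the strand of the motif relative to the gene. Isg15, Ifit1, Ifit3, Bst2 and Rsad2 had all their matches before the start site, while those of Ifih1, Eif2ak2, Ifitm3 and Trim21 lay after it. Slfn8 and Trim30a have 2 promoters each in the table, and their matches are drawn from each start site.

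Counts summed over all genes were 70548781 to 106235625 per library, with each read counted in every gene that it overlapped. Values per mouse are given as CPM, the read count scaled to library size with TMM normalisation over the 14 mice, always in the order of mouse number: NTG 7 to 10, APP/PS1 16 to 20 and CP2-treated APP/PS1 21 to 25. All 6 neuron, 6 astrocyte and 5 oligodendrocyte markers were expressed above the level for testing, as brain tissue should show. Mouse 16, the first of the APP/PS1 values, stood apart. Its 7 measured striatum markers summed to 2409 CPM, against 185 to 363 CPM in the other 13 mice, and it was the lowest of its group in 44 of the 47 interferon-stimulated genes. The part of tissue composition in its low values was not tested. Results that rest on mouse 16 are therefore given with and without it.

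Levels between genes were compared as RPKM, the authors' read count scaled to the length of the gene model and to library size. In NTG mice the order began with Adar at a mean of 22.4 RPKM, Ifi27 at 15.4, Cmpk2 at 7.18, Ifitm3 at 6.29 and Lgals3bp at 5.43, and ended with Oas3 at 0.0246 RPKM. Adar encodes an RNA-editing enzyme. A gene was tested when all mice of either compared group had more than 1 CPM. By this rule 42 of the 47 genes were tested between APP/PS1 and NTG mice, 38 of them through both groups and 4 (Oas1a, Oas2, Mx2 and Rsad2) only through the APP/PS1 mice. The 5 untested genes were Zbp1, Oas3, Oasl1, Mx1 and Ifi44.

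APP/PS1 mice had more RNA of most of these genes than NTG mice. The median log2 fold change of the 42 genes was 1.0, against -0.004 for all 16417 genes tested, and the range ran from -0.09 for Nmi to 2.14 for Oas1a. In edgeR's quasi-likelihood test with Benjamini-Hochberg adjustment over all tested genes, 31 of the 42 were higher at an adjusted p under 0.05 and 0 were lower. Over all genes, 4.34% were higher by this rule. Of the 38 genes that passed the filter through both groups 28 were called, and 3 of the 4 that passed only through the APP/PS1 mice, a route that favours genes high in that group. At an unadjusted p under 0.05, 39 of the 42 were higher (10.6% of all genes). Every APP/PS1 mouse was above every NTG mouse in 30 of the 42 (5.93% of all genes). The 3 genes outside even the unadjusted threshold were Adar, Cmpk2 and Nmi. In a section of bulk tissue, more cells of a type and more RNA per cell cannot be told apart.

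**Figure D2:**
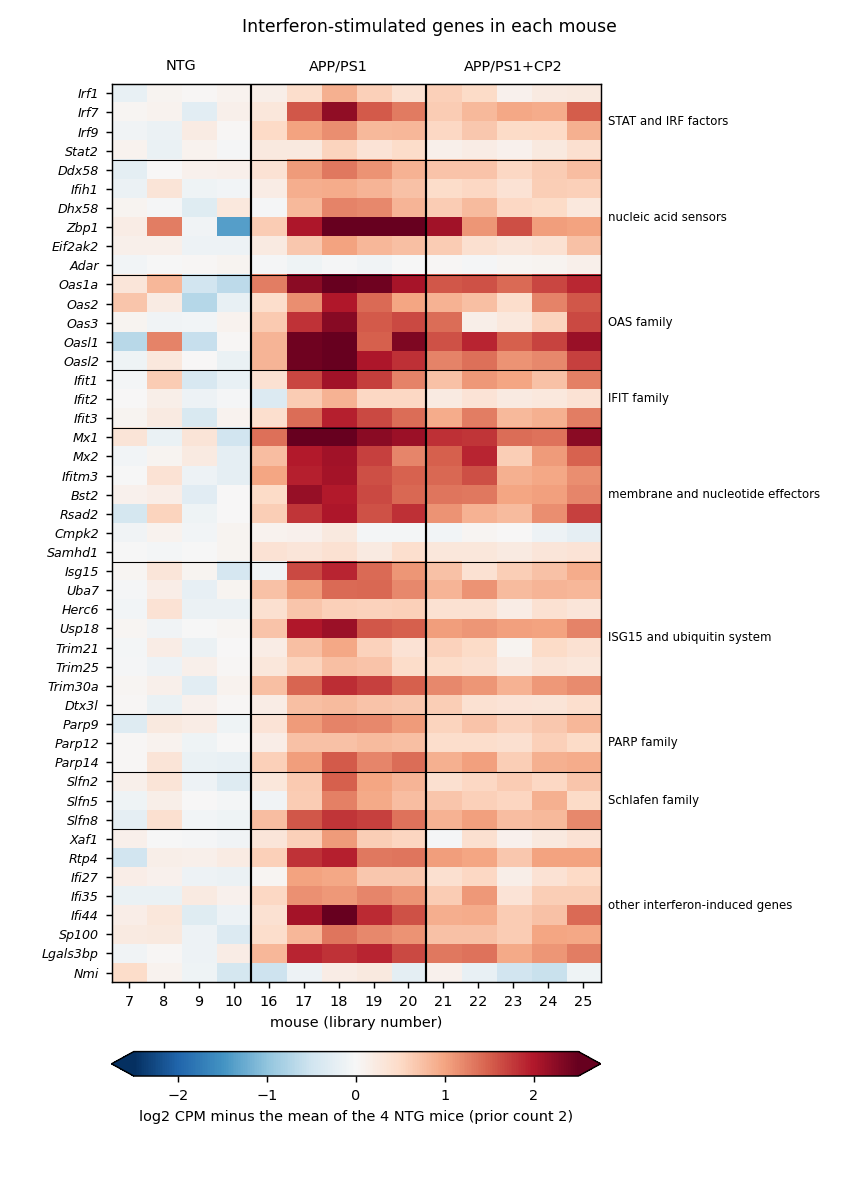
Level of each of the 47 genes (rows, grouped by function) in each mouse (columns) as log2 CPM with a prior count of 2, minus the mean of the 4 NTG mice. Red is above and blue below that mean, and values past 2.5 share the end colour. Most rows are red in APP/PS1 mice 17 to 20, paler in mouse 16 and in the CP2-treated mice, and Adar, Cmpk2 and Nmi stay near white or turn pale blue.

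The transcription factors come first because they carry the signal. Here and below, a value with ± is a log2 fold change with its standard error, and n is 4 NTG and 5 APP/PS1 mice with or without CP2. Stat2 and Irf9 act together in ISGF3. Stat2 was measured at 24.9, 21, 25.1 and 23.2 CPM in NTG mice, 27.9, 28, 34.5, 29.7 and 32.2 CPM in APP/PS1 mice and 25.6, 26.8, 25.3, 28 and 31 CPM in the CP2-treated group. The groups NTG and APP/PS1 did not overlap, but they lay close, and the fold was only 1.3 (log2 fold change 0.38 ± 0.08, adjusted p = 0.023). Irf9 was measured at 9.55, 9.18, 11.7 and 10.5 CPM in NTG mice, 14.3, 20.5, 22.7, 18 and 18.2 CPM in APP/PS1 mice and 14.5, 16.3, 14.2, 14.5 and 18.9 CPM in the CP2-treated group. All transgenic mice, treated or not, exceeded the 4 NTG mice, and the log2 fold change was 0.88 ± 0.13 (adjusted p = 0.0028). Irf7, which is itself induced by interferon and then drives the interferon alpha genes, rose most of the 4 factors (1.52 ± 0.32, adjusted p = 0.02), whereas Irf1 at 0.51 ± 0.14 had an adjusted p of 0.069.

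Among the nucleic acid sensors, 3 of 5 tested genes rose: Ddx58 (RIG-I) at 0.99 ± 0.18, Ifih1 (MDA5) at 0.74 ± 0.17 and Eif2ak2 (PKR, the kinase that halts translation on double-stranded RNA) at 0.73 ± 0.15. Eif2ak2 was measured at 8.97, 8.98, 7.55 and 7.47 CPM in NTG mice, 9.61, 13.2, 16.5, 14.6 and 13.9 CPM in APP/PS1 mice and 12.7, 10.9, 10.1, 10.6 and 13.7 CPM in the CP2-treated group. Mouse 16 was the nearest APP/PS1 mouse to the NTG range without entering it. Adar was measured at 181, 188, 193 and 198 CPM in NTG mice, 186, 177, 187, 178 and 189 CPM in APP/PS1 mice and 195, 185, 196, 198 and 206 CPM in the CP2-treated group. Its 3 groups overlapped throughout, with a log2 fold change of -0.04 ± 0.04 between APP/PS1 and NTG mice (adjusted p = 0.65). Some of its reads could also come from Chrnb2, a receptor gene on the opposite strand that shares 16.8% of its exon bases.

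Enzymes of the OAS family make the 2′-5′ linked oligoadenylates that activate RNase L. Oasl2 was measured at 3.25, 4.21, 3.49 and 3.1 CPM in NTG mice, 6.29, 19, 20.1, 14.2 and 12.4 CPM in APP/PS1 mice and 8.22, 9.05, 7.64, 8.08 and 11.5 CPM in the CP2-treated group. Mouse 16 lay below all 5 CP2-treated mice, the other APP/PS1 mice lay above all of them, and no transgenic mouse reached down to the NTG range (2.04 ± 0.3, adjusted p = 0.0031). Oas1a was measured at 0.602, 0.878, 0.341 and 0.3 CPM in NTG mice, 1.21, 2.4, 3.07, 2.71 and 2.09 CPM in APP/PS1 mice and 1.46, 1.51, 1.33, 1.58 and 1.85 CPM in the CP2-treated group. Again the NTG and APP/PS1 groups did not overlap, and the fold was 4.41 (2.14 ± 0.36, adjusted p = 0.0067). Oas1a passed the level filter only through the APP/PS1 mice, and reads could be divided with its near-identical neighbours of the Oas1 cluster. Oas2 at 1.23 ± 0.36 had an adjusted p of 0.08.

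IFIT proteins bind foreign RNA and block its translation. Ifit3 was measured at 9.57, 10.7, 7.07 and 9.75 CPM in NTG mice, 12.3, 24.3, 35.5, 29 and 24 CPM in APP/PS1 mice and 17.6, 22.2, 16.1, 17.1 and 22.2 CPM in the CP2-treated group. The lowest APP/PS1 value, that of mouse 16, was still above the highest NTG value, and the log2 fold change was 1.44 ± 0.27 (adjusted p = 0.011). Ifit2 was measured at 13.9, 15.1, 12.5 and 13.5 CPM in NTG mice, 10.8, 21.4, 25, 19.7 and 19.6 CPM in APP/PS1 mice and 16, 17.4, 16.1, 16.5 and 17.5 CPM in the CP2-treated group. Mouse 16 fell below all 4 NTG mice while the other APP/PS1 mice lay above them, and the gene did not pass the test (0.5 ± 0.2, adjusted p = 0.21). Ifit1 rose by 1.5 ± 0.33 (adjusted p = 0.028).

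Of the membrane and nucleotide effectors, 5 of 6 tested genes rose. Mx2 and Rsad2 were tested only because of their level in APP/PS1 mice, and 3 of the other 4 rose. Ifitm3 blocks the fusion of viruses in endosomes, and Bst2 (tetherin) holds budding virions at the cell surface. Ifitm3 was measured at 5.24, 6.8, 4.87 and 4.54 CPM in NTG mice, 10.5, 20.3, 22.4, 16.2 and 14.7 CPM in APP/PS1 mice and 14.4, 16.3, 9.87, 10.4 and 11.9 CPM in the CP2-treated group. NTG values stayed below every value of the transgenic mice, and Ifitm3 had one of the 5 smallest p values of the list (fold 3.16, log2 fold change 1.66 ± 0.22, adjusted p = 0.0016). Bst2 was measured at 3.55, 3.67, 2.72 and 3.32 CPM in NTG mice, 4.58, 15, 13.1, 10.3 and 8.92 CPM in APP/PS1 mice and 8.36, 8.24, 6.57, 6.77 and 7.67 CPM in the CP2-treated group. Among APP/PS1 mice it ran from near the NTG values in mouse 16 to its highest value in mouse 17 (1.65 ± 0.3, adjusted p = 0.0091). Mx2 (1.67 ± 0.28) and Rsad2 (viperin, 1.63 ± 0.29) also rose. Samhd1, which degrades deoxynucleotides, rose by only 0.35 ± 0.06 with an adjusted p of 0.0059. Cmpk2, a mitochondrial nucleotide kinase, was at 0.08 ± 0.07 (adjusted p = 0.64).

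The ISG15 and ubiquitin group held 8 tested genes, of which 6 rose. Isg15 is attached to proteins by the E1 enzyme Uba7 and by Herc6, the main Isg15 ligase of the mouse, and is removed by Usp18. Isg15 was measured at 1.64, 1.95, 1.67 and 1.18 CPM in NTG mice, 1.49, 4.99, 5.99, 4.23 and 3.41 CPM in APP/PS1 mice and 2.66, 2.07, 2.43, 2.65 and 3.04 CPM in the CP2-treated group. Mouse 16 lay inside the NTG range, the other APP/PS1 mice were far above it, and the adjusted p was 0.055 (1.33 ± 0.35). Uba7 was measured at 3.35, 3.87, 2.97 and 3.61 CPM in NTG mice, 5.7, 7.18, 9.25, 9.38 and 7.88 CPM in APP/PS1 mice and 6.22, 7.45, 5.92, 6.16 and 6.13 CPM in the CP2-treated group. NTG and transgenic mice did not overlap (1.2 ± 0.16, adjusted p = 0.0016). Herc6 was measured at 11.3, 15.1, 10.8 and 10.7 CPM in NTG mice, 15.7, 19, 17.8, 17.6 and 17.9 CPM in APP/PS1 mice and 15.3, 15.3, 13.4, 15.3 and 14.5 CPM in the CP2-treated group. NTG mouse 8 came close to mouse 16 from below, and the log2 fold change was 0.57 ± 0.11 (adjusted p = 0.016). Trim30a, a ubiquitin ligase, was measured at 3.25, 3.47, 2.63 and 3.37 CPM in NTG mice, 5.31, 8.76, 11.4, 10.4 and 8.88 CPM in APP/PS1 mice and 7.26, 6.83, 5.79, 6.73 and 7.2 CPM in the CP2-treated group. Its NTG values were below all values of the transgenic mice (1.5 ± 0.21, adjusted p = 0.0019). Usp18 rose by 1.68 ± 0.26 (adjusted p = 0.0039), the largest change of the group.

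All 3 PARP genes rose. Parp9 and Parp12 belong to the ADP-ribosyltransferase family, and Parp9 acts with the ubiquitin ligase Dtx3l, whose gene lies head to head with it. Parp12 was measured at 10.1, 10.5, 9.2 and 9.81 CPM in NTG mice, 11, 16.4, 16.5, 17 and 16.6 CPM in APP/PS1 mice and 13.3, 13.5, 13.1, 15 and 13.9 CPM in the CP2-treated group. Mouse 16 was close to the NTG mice, and the other 4 APP/PS1 mice formed a tight cluster (0.66 ± 0.13, adjusted p = 0.013). Parp9 was measured at 3.32, 4.92, 4.75 and 3.86 CPM in NTG mice, 5.27, 8.71, 9.89, 9.59 and 8.71 CPM in APP/PS1 mice and 6.1, 6.87, 6.19, 6.69 and 7.4 CPM in the CP2-treated group. It showed the same separation of mouse 16 from the rest of its group (1.01 ± 0.19, adjusted p = 0.013). Parp9 and Dtx3l share 9.4% of the exon bases of Parp9.

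Schlafen genes encode regulators of translation and immune cell growth, and 1 of 3 rose. Slfn8 was measured at 1.35, 2.08, 1.52 and 1.47 CPM in NTG mice, 2.71, 4.67, 5.53, 5.2 and 4.1 CPM in APP/PS1 mice and 2.9, 3.25, 2.71, 2.79 and 3.67 CPM in the CP2-treated group, with NTG and APP/PS1 mice apart (1.48 ± 0.22, adjusted p = 0.0033). Slfn5 was measured at 4.19, 4.97, 4.51 and 4.36 CPM in NTG mice, 4.2, 7.04, 10.8, 8.74 and 7.67 CPM in APP/PS1 mice and 7.3, 6.84, 6.56, 8.38 and 6.26 CPM in the CP2-treated group. Slfn2 was measured at 1.65, 1.87, 1.36 and 1.19 CPM in NTG mice, 1.83, 2.38, 4.24, 2.99 and 2.72 CPM in APP/PS1 mice and 1.98, 2.15, 2.32, 2.14 and 2.43 CPM in the CP2-treated group. In both genes mouse 16 lay within the NTG range, and neither passed the test (Slfn5 0.78 ± 0.23, adjusted p = 0.08, and Slfn2 0.91 ± 0.24, adjusted p = 0.058). Reads of the Schlafen genes could be divided with related family members, and the likeness of their sequences was not measured.

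In the remaining group, 6 of 7 tested genes rose. Lgals3bp, a secreted galectin-binding glycoprotein, had the smallest p of all 42 genes. It was measured at 18.1, 19.5, 17.6 and 22 CPM in NTG mice, 34.1, 72.4, 67.8, 72.2 and 60.5 CPM in APP/PS1 mice and 47.9, 49.3, 37.2, 41.2 and 47.1 CPM in the CP2-treated group. NTG, treated and untreated transgenic mice separated except for mouse 16, and the fold between APP/PS1 and NTG mice was 3.19 (1.68 ± 0.2, adjusted p = 0.0011). Ifi27, a small membrane protein, was measured at 31.9, 30.3, 25.7 and 25.6 CPM in NTG mice, 29.3, 56.8, 55.3, 44.9 and 45.1 CPM in APP/PS1 mice and 37.4, 40.6, 31.3, 36.1 and 39.8 CPM in the CP2-treated group. Mouse 16 was inside the NTG range (0.71 ± 0.17, adjusted p = 0.042). Xaf1, a partner of the caspase inhibitor XIAP, was measured at 6.3, 5.67, 5.64 and 5.37 CPM in NTG mice, 7.1, 8.72, 12.1, 8.76 and 8.32 CPM in APP/PS1 mice and 5.59, 7.61, 6.16, 6.77 and 7.42 CPM in the CP2-treated group. NTG and APP/PS1 mice did not overlap (0.65 ± 0.14, adjusted p = 0.023), but CP2-treated mice 21 and 23 lay within the NTG range. Ifi44 was measured at 0.761, 0.833, 0.543 and 0.621 CPM in NTG mice, 0.898, 2.96, 4.37, 2.55 and 2.09 CPM in APP/PS1 mice and 1.3, 1.32, 1.07, 1.15 and 1.86 CPM in the CP2-treated group. It was not tested in this comparison because NTG mice and mouse 16 were under 1 CPM.

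**Figure D3:**
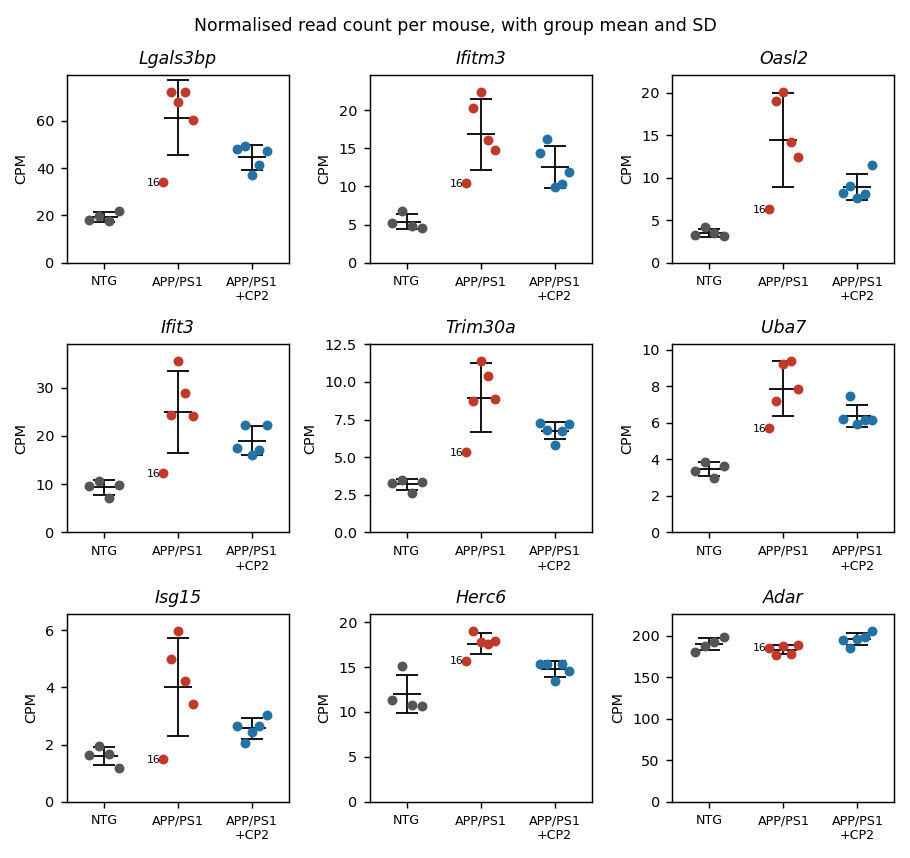
CPM of 9 of the genes in each mouse (points, grey NTG, red APP/PS1, blue CP2-treated APP/PS1), with the group mean as a dash and 1 SD as bars and mouse 16 labelled. In 8 panels the APP/PS1 mice other than 16 lie above the NTG mice, and in the panel of Adar the 3 groups overlap.

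The 5 untested genes were under 1 CPM in every NTG mouse and in APP/PS1 mouse 16. In other APP/PS1 mice Ifi44 reached 4.37 CPM, Zbp1 2.49 CPM and Mx1 2.15 CPM, while Oas3 and Oasl1 stayed under 1 CPM in every mouse. Mx1, an antiviral GTPase, had 20 to 229 reads per library, and Oas3 had 10 to 94. A fit without the level filter gave log2 fold changes between APP/PS1 and NTG mice of 2.27 ± 0.29 for Mx1 (adjusted p = 0.00072), 1.9 ± 0.36 for Ifi44 (adjusted p = 0.013) and 1.8 ± 0.33 for Oas3 (adjusted p = 0.011). Zbp1, a sensor of left-handed nucleic acid, reached 2.226 ± 0.55 (adjusted p = 0.054), and Oasl1 reached 2.09 ± 0.52 (adjusted p = 0.057). All 5 were thus estimated well above 0, with the last pair short of the threshold.

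Many of the 47 genes lie beside each other, and neighbours did not always move alike. Rsad2 and Cmpk2 lie 12752 bases apart on chromosome 12 (chr12:26442753-26456452 and chr12:26469204-26479835, mm10), yet their log2 fold changes were 1.63 and 0.08. On chromosome 19 Ifit2 (chr19:34550694-34576419) is 7112 bases from Ifit3 (chr19:34583531-34588731), with 0.5 against 1.44. By promoter letters, the 15 tested genes with an ISRE match had a median log2 fold change of 1.44, the 19 tested genes with a promoter but no match 0.65, and the 8 tested genes without a promoter entry 1.21. These medians are a description without a test. Their ranges overlapped, since Stat2 has a match and rose by 0.38, while Oasl2 has none and rose by 2.04.

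Leaving out mouse 16 raised the number of genes higher in APP/PS1 than in NTG mice to 39 of 42, against 6.37% of all genes, and the median log2 fold change to 1.12. Of the 31 genes called with all mice, 21 were called in all 9 fits with 1 mouse left out. Without NTG mouse 9 the count was 22, its lowest. In that fit 582 of all 16417 genes were called in either direction, against 932 with all mice. Adjusted p rose to 0.053 for Parp12, 0.059 for Herc6, 0.061 for Sp100, 0.064 for Eif2ak2 and 0.076 for Irf7. It also rose to 0.077 for Xaf1, 0.093 for Ifih1, 0.095 for Ifit1 and 0.13 for Ifi27. Of these genes, Ifi27 was called in 1 of the 9 fits, Ifih1 in 2 and Ifit1 in 3. Stat2 reached an adjusted p of 0.059 without mouse 20. Their fold changes kept their sign in every such fit.

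Genes of the pathway outside the 47 were read next. The 17 type I interferon ligand genes yielded almost no reads. No count was seen in any mouse for 10 of them, the highest count of a ligand gene in a library was 4, and all ligand genes together had 1 to 8 reads per library. A difference in the ligands was not detectable at this depth. Of the receptor chains and kinases, Ifnar2 rose by 0.51 ± 0.07 (adjusted p = 0.0017), while Ifnar1 was at 0.05 ± 0.06, Jak1 at 0.01 ± 0.04 and Tyk2 at 0.1 ± 0.07, none of which passed the test.

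Among 11 tested upstream sensors and adaptors, 3 rose. The endosomal RNA receptor Tlr7 rose by 1.97 ± 0.14 (adjusted p = 0.00012) and Unc93b1, which carries Toll-like receptors to endosomes, by 1.09 ± 0.13 (adjusted p = 0.0012). Tmem173 (STING) rose by 0.76 ± 0.14 (adjusted p = 0.013), and Mb21d1 (cGAS) was at 0.66 ± 0.18 with an adjusted p of 0.06. Of the upstream kinases and IRFs, Irf8, a factor of the microglial lineage, rose by 1.72 ± 0.18 (adjusted p = 0.00053) and Irf5 also rose, while Tbk1, Ikbke and Irf3 did not pass. Of the negative regulators Ptpn6 (1.64 ± 0.18) and Socs3 (1.12 ± 0.19) rose. Ifngr1 and Il10rb, receptor chains for type II and type III interferon, rose as well (0.39 ± 0.06 and 0.5 ± 0.12). In all, 10 of 28 tested pathway genes were higher, against 4.34% of all genes, and 0 lower. Several of these genes are expressed mainly by microglia.

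Markers of some cell types moved in the same comparison. Of 8 microglia markers 7 were higher at an adjusted p under 0.05, a rule met by 4.34% of all genes. The summed level of the 8 was 345 to 361 CPM in NTG and 630 to 802 CPM in APP/PS1 mice. Of 8 markers of plaque-associated microglia 6 were higher (median log2 fold change 2.29), with sums of 140 to 184 CPM in NTG and 269 to 408 CPM in APP/PS1 mice. Cst7 and Itgax, 2 of these 6, were tested only because of their level in APP/PS1 mice, a route that favours genes high in that group. Lpl did not pass (0.55 ± 0.2, adjusted p = 0.16), and Spp1 had an estimate below 0 (-0.58 ± 0.67, adjusted p = 0.71). In NTG mouse 7, the highest of the NTG sums, Spp1 gave 66 of the 184 CPM. The 1 tested marker of 4 for B cells was higher at 1.41 on the log2 scale, and the sums of all 4 were 9.92 to 11.8 CPM and 19.1 to 32.4 CPM. All 5 reactive astrocyte markers were higher, with sums of 466 to 726 CPM and 1376 to 3336 CPM. Of 6 endothelial markers 1 was higher (185 to 197 CPM and 188 to 270 CPM). Of 6 general astrocyte markers 0 were higher and Slc1a2 was lower (-0.41 ± 0.1, adjusted p = 0.044). Of the 6 astrocyte estimates, 3 were above 0 and 3 below. Their sums were 4798 to 5382 CPM in NTG and 4183 to 4670 CPM in APP/PS1 mice. Slc1a2 made up most of these sums, with a mean of 3173 CPM in NTG and 2375 CPM in APP/PS1 mice. None of 6 neuron and 5 oligodendrocyte markers was called, nor was the 1 tested marker of 5 for monocytes and neutrophils. All 7 striatum markers had estimates above 0 (median 1.81) with 0 called, and mouse 16 stood at 2409 CPM. None of the 10 T and NK lymphocyte markers reached the level for testing, with sums of 0.784 to 1.41 CPM in NTG mice and 2.215 to 3.95 CPM in APP/PS1 mice other than mouse 16. No marker was at 0 in every mouse. In mouse 16 that sum was 22.9 CPM, of which Cd4 gave 21.6 CPM, while Cd3e was at 0.21 CPM. The part of these cell types in the change of the interferon-stimulated genes was not tested.

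CP2-treated APP/PS1 mice were compared with vehicle-treated APP/PS1 mice to ask whether the treatment changed these genes. Of 43 tested genes, 42 had a log2 fold change below 0, with a median of -0.32 against -0.006 for all 16407 genes. None passed at an adjusted p under 0.05 (1 gene in the whole table did, 0.00609%), and the lowest adjusted p of the list was 0.74. At an unadjusted p under 0.05, 15 genes were lower (3.66% of all genes) and Adar was higher (2.88% of all genes). By DESeq2 0 passed after adjustment (23 of all genes) and 21 were lower before it (672 of all genes). Genes of 1 list can move together, so the 42 signs are not independent of each other.

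**Figure D4:**
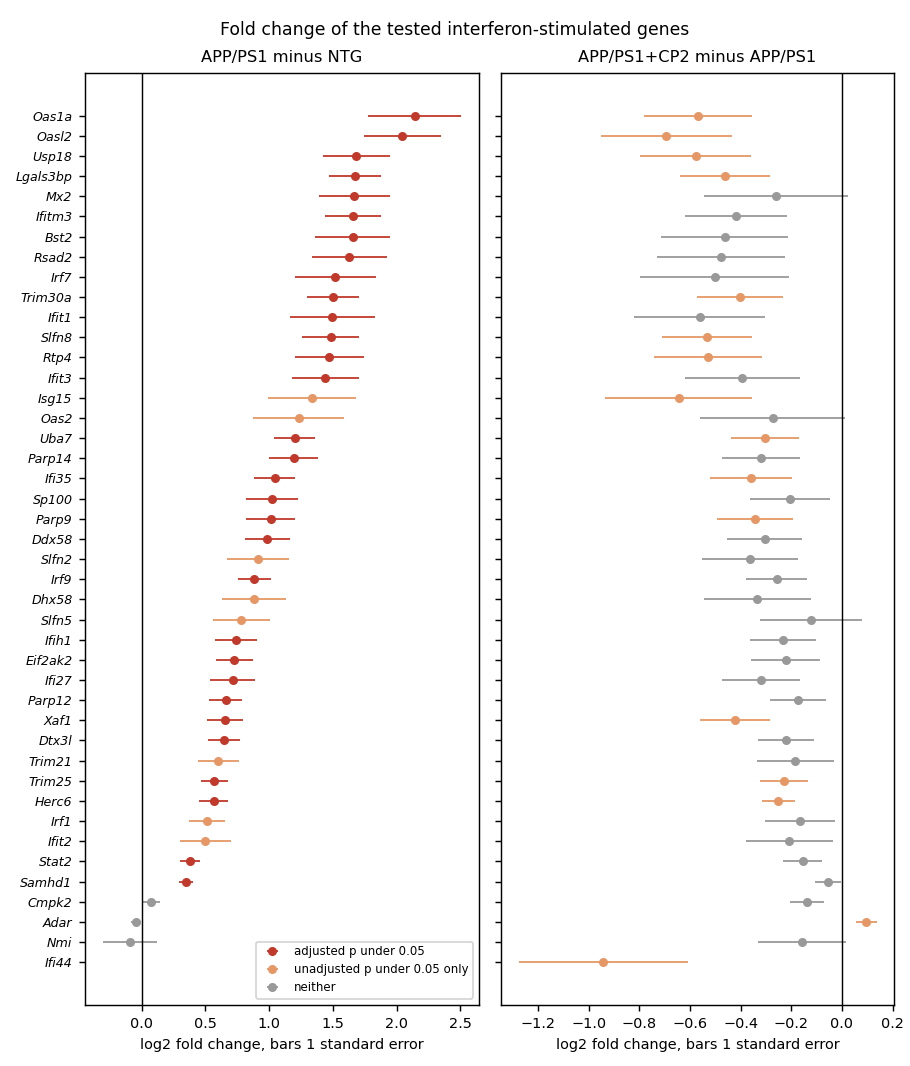
Log2 fold change with 1 standard error of the 43 genes tested in either comparison, ordered by APP/PS1 minus NTG (left) and in the same order for CP2-treated minus vehicle-treated APP/PS1 mice (right). Red marks an adjusted p under 0.05, orange an unadjusted p under 0.05 only and grey neither. The left panel holds 31 red points right of 0, and the right panel holds none, with 42 points left of 0.

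Herc6 had the smallest p, with a log2 fold change of -0.25 ± 0.06 (unadjusted p = 0.0024, adjusted p = 0.74). It was the only gene of the list in which every CP2-treated mouse was below every vehicle-treated APP/PS1 mouse, which held for 0.591% of all genes. Xaf1 followed at -0.42 ± 0.14 and Slfn8 at -0.53 ± 0.18 (adjusted p = 0.74 for each). Ifi44, which passed the filter through the CP2-treated mice only, had the largest change, -0.94 ± 0.33. In Oasl2 the change was -0.69 ± 0.26 and in Oas1a -0.57 ± 0.21, with mouse 16 below every CP2-treated mouse in both. Adar, the 1 gene above 0, differed by 0.1 ± 0.04.

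By function, the genes lower at an unadjusted p under 0.05 were 6 of 8 in the ISG15 and ubiquitin group, 5 of 8 in the remaining group, 2 of 3 in the OAS family, 1 of 3 in the PARP family and 1 of 3 in the Schlafen family. None of the 4 transcription factors, 3 IFIT genes or 6 membrane and nucleotide effectors reached it. Irf7 at -0.5 ± 0.29, Ifit1 at -0.56 ± 0.26 and Bst2 at -0.46 ± 0.25 had estimates farther below 0 than some that did, such as Herc6. The part of the spread among vehicle-treated mice, mouse 16 to mouse 18, in their p values was not tested.

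Without mouse 16, 34 of the 43 genes were lower at an unadjusted p under 0.05 (5.54% of all genes), and the median was -0.44. Every CP2-treated mouse was then below every vehicle-treated one in 24 genes (1.43% of all genes). Still none passed after adjustment, with 0.00609% of all genes passing. The lowest adjusted p, 0.13, belonged to Lgals3bp at -0.62 ± 0.09. Isg15 moved from -0.65 ± 0.29 to -0.86 ± 0.16 and Ifit2 from -0.21 ± 0.17 to -0.36 ± 0.07. Mouse 18 was the highest of its group in 36 of the 47 genes. Without it only 3 of the 43 genes were lower at an unadjusted p under 0.05, against 540 of all 16407 genes. The count fell to 5 without CP2-treated mouse 23 (584 of all genes), and to 8 without mouse 17, 19 or 24 (444, 566 and 329 of all genes). It thus moved by more than 1.5 times with the mouse left out.

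Over the 47 genes, the median log2 level relative to the NTG mean was 0.39 in mouse 16 and 1.06, 1.42, 1.21 and 1.1 in mice 17 to 20. In CP2-treated mice 21 to 25 it was 0.72, 0.74, 0.57, 0.73 and 0.89. Every CP2-treated mouse was above mouse 16 and below the other 4 APP/PS1 mice. The SD was 0.11 over the 5 CP2-treated mice, 0.39 over the 5 vehicle-treated mice and 0.16 over the 4 vehicle-treated mice other than mouse 16. Mouse 25, the highest of the treated group in 23 genes, had the lowest microglia sum of that group (513 CPM). Mouse 24, at a nearly equal 518.5 CPM, was the highest in 4 genes.

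**Figure D5:**
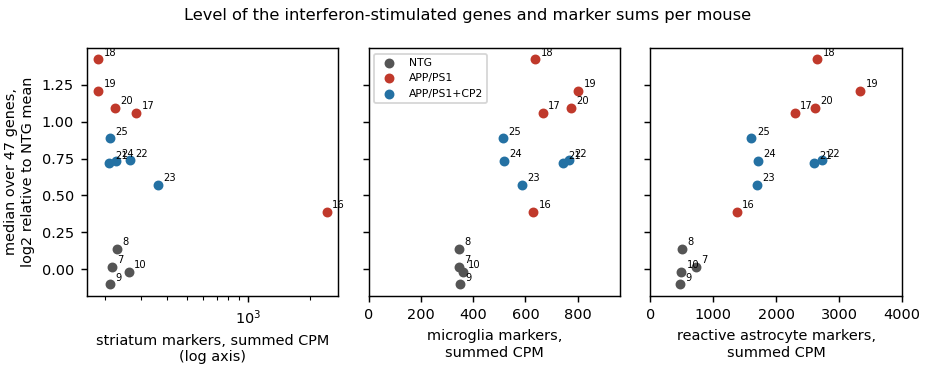
Median log2 level of the 47 genes relative to the NTG mean in each mouse (vertical) against the summed CPM of striatum (log axis), microglia and reactive astrocyte markers (horizontal), with mouse numbers. Mouse 16 stands alone at 2409 CPM of striatum markers. The NTG mice lie at the lower left of the other panels, and CP2-treated mice 23 to 25 have lower reactive astrocyte sums than mice 21 and 22.

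In this comparison 3.66% of all genes were lower and 2.88% higher at an unadjusted p under 0.05. By this rule 0 of 8 microglia markers were called, with sums of 513 to 767 CPM in CP2-treated and 630 to 802 CPM in vehicle-treated mice. All 8 of their estimates were below 0 (median log2 fold change -0.16). Of 8 markers of plaque-associated microglia 7 had estimates below 0 (median -0.17) and 1 was lower at an unadjusted p under 0.05, with sums of 239 to 348 CPM against 269 to 408 CPM. Of the 5 reactive astrocyte markers 2 were lower at an unadjusted p under 0.05, with sums of 1607 to 2728 CPM against 1376 to 3336 CPM, and all 5 estimates were below 0 (median -0.52). All 7 striatum markers had estimates below 0 (median -1.44), with mouse 16 at 2409 CPM and the other 4 vehicle-treated mice at 185 to 284 CPM. The part of these differences in the values of the interferon-stimulated genes was not tested. Of 29 pathway genes outside the list 0 passed after adjustment and 2 had an unadjusted p under 0.05 with an estimate below 0, against 3.66% of all genes. These were Tlr7 at -0.61 ± 0.14 (unadjusted p = 0.0014) and Ticam1, the adaptor of Tlr3, at -0.19 ± 0.07 (unadjusted p = 0.024). Ifnar2 was at -0.13 ± 0.07 with an adjusted p of 0.75.

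CP2-treated APP/PS1 mice were above NTG mice in most of these genes. Of 43 tested genes 33 were higher and 0 lower at an adjusted p under 0.05 (4.56% of all genes higher). Of these 43, Oas1a, Oas2, Mx2, Rsad2 and Ifi44 were tested only because of their level in the CP2-treated mice, and 4 of these 5 were called, against 29 of the 38 that passed the filter through both groups. The median log2 fold change was 0.68, and in 34 genes no CP2-treated mouse overlapped with an NTG mouse (6% of all genes). The treated and untreated comparisons with NTG share the 4 NTG mice. Side by side, the log2 fold changes against NTG in untreated and CP2-treated mice were 2.04 and 1.35 for Oasl2, 1.68 and 1.22 for Lgals3bp, 1.65 and 1.19 for Bst2, and 1.33 and 0.69 for Isg15. Lgals3bp again had the smallest p (1.22 ± 0.1, adjusted p = 0.0002). Of the 33 genes 21 were called in all 9 fits with 1 mouse left out, and the lowest count was 22, without NTG mouse 10. In that fit 674 of all 16416 genes were called in either direction, against 989 with all mice.

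All 3 IFIT and all 3 Schlafen genes were higher in CP2-treated than in NTG mice. Ifit2, Slfn2 and Slfn5, which had not passed between APP/PS1 and NTG mice, passed here at smaller fold changes (0.29 ± 0.07, 0.55 ± 0.14 and 0.66 ± 0.1, adjusted p = 0.028, 0.048 and 0.003), with smaller standard errors. Without NTG mouse 9 the adjusted p was 0.081 for Ifit2, called in 3 of 9 fits with 1 mouse left out, and 0.13 for Slfn2, called in 1 of 9, while Slfn5 was called in all 9. Isg15 had not passed between APP/PS1 and NTG mice either. It passed here (0.69 ± 0.16, adjusted p = 0.03) and was called in 3 of 9 such fits. Stat2 (0.23 ± 0.08, adjusted p = 0.12), Herc6 (0.32 ± 0.11, adjusted p = 0.12) and Xaf1 (0.24 ± 0.11, adjusted p = 0.24) passed between APP/PS1 and NTG mice but not here. Whether these genes differ between the comparisons is given by the direct contrast of treated with untreated mice above, in which none passed after adjustment.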

How the data were processed

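RNA libraries (TruSeq) from 14 mice were sequenced with paired ends. TopHat2 was used by the authors for alignment to mm10, and FeatureCounts assigned each read to every Ensembl gene that it overlapped. The strand setting is not given in the sources used here. The deposited table holds raw counts per gene, RPKM values computed by the authors and a length of each gene model. The counts were tested and the authors' RPKM was used only to compare levels between genes.

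Each comparison was fitted on its own groups with edgeR 4.0.16 (R 4.3.3), TMM factors, the quasi-likelihood test and Benjamini-Hochberg adjustment over all tested genes. Genes needed a robust CPM above 1 in every mouse of at least 1 group. Standard errors are those implied by the test statistic. Fits leaving out a mouse kept the tested genes. Alternatives were DESeq2 1.42.0, limma-voom (limma 3.58.1) with sample weights, RLE factors, no filter and all groups in 1 fit. The procedure was tested on simulated data. The groups were those of the labels, and depth limits the precision for genes under 1 CPM.

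The 47 genes and all lists were chosen with earlier results of these data known. Values per mouse are printed for the 2 genes of each function group with the highest mean RPKM and for the 5 with the smallest p in each of the first 2 comparisons. 1 item is not reported here.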

Additional observations from a re-analysis of the deposited data

Results flagged for a closer look

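In 9 of 141 combinations of gene and group, 1 mouse lay farther from its group than Dixon's 95% criterion allows, where chance alone gives 7.05. In APP/PS1 mouse 16, Parp12 at 11 CPM, Dtx3l at 6.95 CPM, Parp9 at 5.27 CPM and Ifi35 at 2.84 CPM were far below the other 4 mice of the group, which held 16.4 to 17, 9.77 to 10.5, 8.71 to 9.89 and 4.24 to 4.60 CPM. NTG mouse 8 was high in Ifih1 (6.37 CPM, others 4.62 to 4.9) and in Herc6 (15.1 CPM, others 10.7 to 11.3). Rtp4, a chaperone of receptor transport, was low in NTG mouse 7 (1.2 CPM, others 1.86 to 1.95) and in CP2-treated mouse 23 (2.71 CPM, others 3.38 to 3.49). Uba7 was high in CP2-treated mouse 22 (7.45 CPM, others 5.92 to 6.22). Dtx3l and Parp9 share exon bases, so their values are not independent.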

How the results depend on the processing

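The number of interferon-stimulated genes lower under CP2 than under vehicle at an unadjusted p under 0.05, 15, became 23 with no filter (47 genes tested), 34 with limma-voom and 3 to 34 when 1 mouse was left out. Over all genes, 601 of 16407 were lower. That number became 1011 of 33733 with no filter, 772 with limma-voom and 329 to 909 when 1 mouse was left out. The number of interferon-stimulated genes higher, 1, became 0 with no filter and 0 to 1 when 1 mouse was left out. The cause was not tested. The counts after adjustment stayed within 1.5 times: 31 to 39 genes higher in APP/PS1 than in NTG mice over DESeq2, RLE factors, no filter, all groups in 1 fit and limma-voom, 22 to 39 when 1 mouse was left out, and 22 to 38 for CP2-treated against NTG mice over all these fits. Over all genes, those called in either direction were 968 to 1667, 582 to 1417 and 578 to 1670 in these sets of fits. No fit called a gene of the list between CP2 and vehicle after adjustment. Isg15 passed between APP/PS1 and NTG mice with DESeq2, no filter, all groups in 1 fit and limma-voom (adjusted p = 0.0017 to 0.049). Nmi changed sign between APP/PS1 and NTG mice with limma-voom (0.054), and it ranged from -0.22 to 0.081 when 1 mouse was left out. Slfn5 ranged from -0.28 to 0.03 between CP2 and vehicle when 1 mouse was left out, above 0 only without mouse 18. No paired analysis was possible because the groups share no replicate numbers.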

Other observations

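Pathway genes outside the 47 were higher in CP2-treated APP/PS1 than in NTG mice in 9 of 29 tested cases, with 0 lower (edgeR's quasi-likelihood test, adjusted p under 0.05), against 4.56% of all genes higher. Mb21d1 and Ifi204 were tested only because of their level in the CP2-treated mice, and Ifi204 (2.12 ± 0.24 on the log2 scale, adjusted p = 0.00056) was among the 9. Irf8, a transcription factor of myeloid cells, was higher by 1.5 ± 0.15 on the log2 scale (adjusted p = 0.0004), Tlr7 by 1.36 ± 0.16 (adjusted p = 0.00073), the phosphatase Ptpn6 by 1.37 ± 0.16 (adjusted p = 0.00062) and Unc93b1 by 0.88 ± 0.14 (adjusted p = 0.0034). The DNA receptor Tlr9 was also higher (0.77 ± 0.14, adjusted p = 0.0081). Ifng, the type II interferon, had at most 9 reads in a library and was not tested.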
